A study of Zea mays with 14 samples.

Results

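H3K27me3 was compared between shoots and roots of maize seedlings through the peak list of each organ and the marked length and depth that the authors listed for each gene model. These are 2 of the 14 libraries of the study, found by the mark and organ in their titles, with 14592 peaks in shoot and 6875 peaks in root. The material was the maize (Zea mays) inbred line B73, grown for 14 days in a soil and vermiculite mix watered with dilute calcium nitrate and divided into shoots and roots, and both organs share this genotype, age and growth. The study has 7 assays in 2 organs with 1 library each: H3K27me3, H3K4me3, H3K9ac, H3K36me3, DNA methylation, mRNA and small RNA. Both H3K27me3 libraries came from chromatin immunoprecipitation (ChIP), in which an antibody pulls down chromatin fragments that carry the mark and the DNA is sequenced. Each used 5 g of tissue from 10 seedlings, with the DNA of 3 reactions pooled and amplified over 18 PCR cycles.

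H3K27me3 is a trimethyl group on a lysine of the histone H3 tail, written by the Polycomb repressive complex PRC2 and linked to genes that are kept off. In plants it usually lies over single genes and their surroundings, and many of its targets are developmental regulators that are used in another organ or at another stage. It can be removed by JmjC demethylases, and it is distinct from H3K4me3 and H3K9ac, which are usual at the starts of active genes, and from DNA methylation, which is common on transposable elements (TE).

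With 1 library per organ, no difference between organs has a replicate check and no test of the organs was possible. The intervals given are 95% Wilson intervals for shares and exact binomial intervals for medians, and they cover counting error only. The read totals of the chromatin libraries are not given in the files used here, so that organ, sequencing depth and efficiency of the immunoprecipitation cannot be told apart in what follows. In mixed tissue, fewer cells that carry the mark and less of the mark per cell cannot be told apart either. Peak positions are given on sequenced genomic clones, of a build that the sources used here do not name. The organ labels were not checked against marker genes, since 0 of the gene identifiers matched the name table.

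Shoot had more H3K27me3 peaks than root, and the excess was larger among longer peaks. Peaks shorter than 300 bp numbered 4329 in shoot and 2833 in root, a ratio of 1.53. Peaks of at least 1 kb numbered 2383 in shoot and 487 in root, a ratio of 4.89. At 2 kb and above there were 405 in shoot and 45 in root, a ratio of 9.0. Long peaks were thus 16.3% of the shoot list (15.7 to 16.9%) and 7.08% of the root list (6.50 to 7.71%), where long means at least 1 kb. The other histone marks also had higher ratios of shoot over root among longer peaks. Under 300 bp, at 1 kb and above, and at 2 kb and above, H3K4me3 had ratios of 0.591, 3.10 and 5.36, H3K9ac 0.0181, 11.7 and 30.3, and H3K36me3 0.329, 1.07 and 2.31.

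The median peak was 440 bp in shoot (433 to 448 bp) and 346 bp in root (339 to 354 bp). The middle 50% of peaks ran between 279 and 778 bp in shoot and between 243 and 555 bp in root. Shoot peaks ranged between 99 and 6467 bp, root peaks between 97 and 4822 bp. Long peaks made up 41.2% of the marked length in shoot and 22.0% in root. H3K27me3 peaks lay on 7507 clones in shoot and 4286 clones in root, out of 15498 clones with a peak in any of the 10 chromatin lists, and 3689 clones had peaks in both organs.

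Of the 3 longest peaks of each organ, some had no counterpart in the other organ. The longest of shoot lay on clone AC199851.4 (positions 25722 to 32188, 6467 bp) and had no H3K27me3 peak in root. The next, on clone AC211018.2 (138564 to 144696, 6133 bp), held a single root peak of 547 bp. The shoot peak after that, on clone AC190962.2 (117722 to 123809, 6088 bp), also had none in root. In root, the longest lay on clone AC217885.1 (49858 to 54679, 4822 bp), where shoot had a peak of 3316 bp. A root peak of 3756 bp on clone AC211018.2 (33370 to 37125) had no peak in shoot, so the same clone held a region far wider in shoot and a region listed only in root. The root peak of 3500 bp on clone AC200069.3 (141049 to 144548) met 2 shoot peaks that together measured 4182 bp.

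Longer peaks were shared more often. With at least 1 bp in common, 4275 shoot peaks (29.3%, 28.6 to 30.0%) overlapped a root peak and 4467 root peaks (65.0%, 63.8 to 66.1%) overlapped a shoot peak. The other histone marks had 47.3% to 69.5% in shoot and 53.9% to 91.3% in root, and DNA methylation 6.67% and 10.3%. The lists differ in size, and the part of that in these shares was not tested. In 5 classes of equal size from short to long, the shared portion of H3K27me3 shoot peaks was 23.6%, 18.7%, 26.9%, 35.7% and 41.7%. Root peaks gave 50.4%, 55.8%, 64.4%, 74.6% and 79.9%. The order was steady in root, whereas in shoot the shortest class, up to 258 bp, lay above the next. A longer peak has more bases in which to meet another, and the part of length in these values was not tested. In the longest shoot class, of 893 bp or more, 1216 of 2919 peaks had a counterpart in root.

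Shared peaks were longer than peaks of a single organ. In shoot the median was 572 bp (557 to 590 bp) for shared peaks and 401 bp (394 to 408 bp) for the rest. Root peaks had 397 bp (389 to 407 bp) where shared and 281 bp (274 to 288 bp) where not. The shoot peaks absent from the root list were therefore about as long as the root peaks that were shared, as the plot of peak lengths shows. In every list of the other marks, shared peaks also had the larger median. For H3K4me3 in shoot it was 983 bp against 561 bp.

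**Figure D1:**
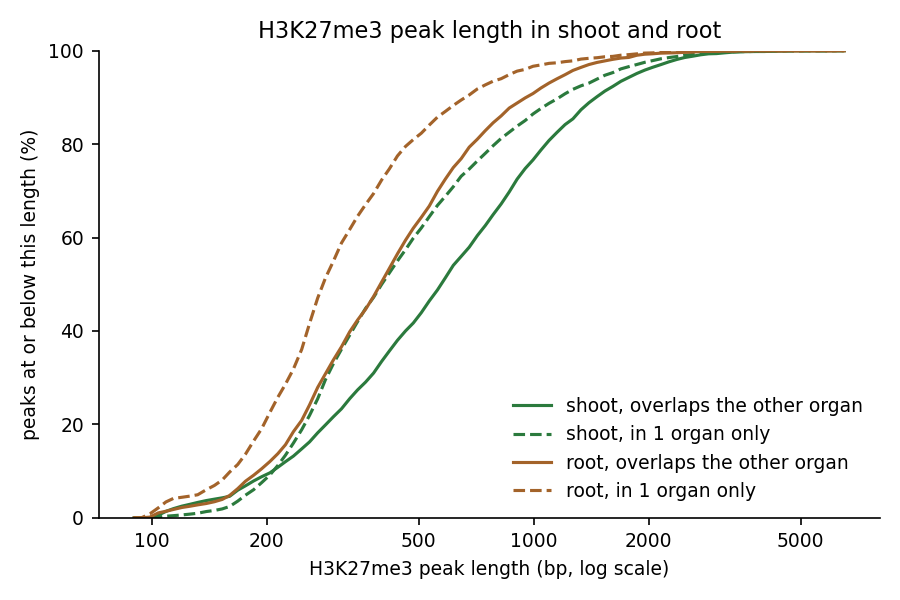
Cumulative share of H3K27me3 peaks (percent) at or below each length (bp, log scale), for shoot and root peaks that do or do not overlap a peak of the other organ. The curve of shared shoot peaks lies furthest to the right with a median of 572 bp, the curves of shoot peaks in 1 organ only (401 bp) and shared root peaks (397 bp) run close together, and root peaks in 1 organ only are shortest at 281 bp.

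Where a mark is present in both organs, the width of the peak can be compared at the same place. Most shared H3K27me3 regions were simple: of 3916 groups of overlapping peaks, 3439 joined 1 shoot peak to 1 root peak. In 196 groups a shoot peak spanned several root peaks, in 134 a root peak spanned several shoot peaks, and 147 held several of both. Over the 3439 simple pairs the median width was 592 bp in shoot and 417 bp in root. The median ratio was 1.30 (1.28 to 1.33), or 0.38 on the log2 scale (0.35 to 0.41). Peaks were wider in shoot in 2506 pairs (72.9%, 71.4 to 74.3%), wider in root in 922 and equal in 11.

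Changes of 2-fold or more were mostly toward shoot. The width was at least 2-fold larger in shoot in 710 pairs, 20.6% of all pairs, and at least 2-fold larger in root in 69 pairs, or 2.01%. The root peak lay wholly inside the shoot peak in 45.7% of pairs (44.0 to 47.4%), the shoot peak lay inside the root peak in 11.2% (10.2 to 12.3%), and in 43.2% the edges were staggered. The median shoot peak reached 32 bp further at its left edge and 42 bp further at its right edge. The centres were 78 bp apart in the median.

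H3K27me3 was not alone in this direction. The same comparison gave a median log2 width ratio of 0.49 (0.48 to 0.50) for H3K4me3 over 30868 pairs, 0.47 (0.45 to 0.48) for H3K36me3 over 13145 pairs and 1.09 (1.08 to 1.10) for H3K9ac over 21382 pairs. DNA methylation was lowest at 0.13 (0.10 to 0.16) over 3252 pairs. H3K27me3 was therefore second lowest, and 26.8% of its pairs were wider in root, compared with 11.0% for H3K4me3, 19.8% for H3K36me3 and 0.346% for H3K9ac. For DNA methylation 40.8% were. At 2-fold or more, the pairs wider in shoot were 19.7% for H3K4me3, 55.8% for H3K9ac, 24.6% for H3K36me3 and 10.2% for DNA methylation, and those wider in root were 0.324%, 0.00468%, 1.03% and 4.27% in the same order. Wider peaks in shoot are thus a property of every chromatin assay in these lists, and no width difference particular to H3K27me3 was tested.

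**Figure D2:**
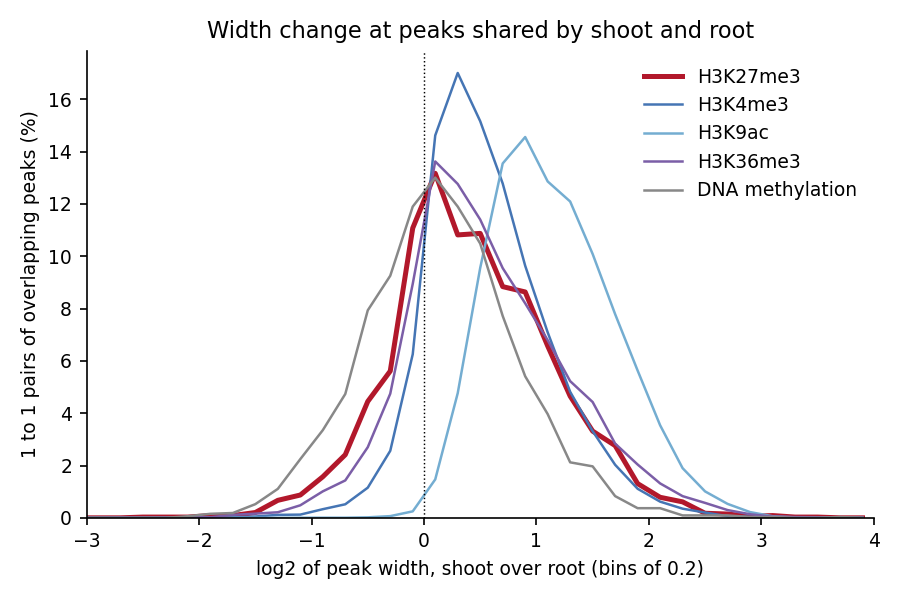
Distribution of the log2 ratio of peak width, shoot over root, at pairs in which 1 shoot peak overlaps 1 root peak, for 5 chromatin marks (percent of pairs in bins of 0.2). All 5 medians lie above 0. H3K27me3 has a median of 0.38, and 26.8% of its pairs lie below 0. This share is 40.8% for DNA methylation, 11.0% for H3K4me3, 19.8% for H3K36me3 and 0.346% for H3K9ac.

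The pairs of most unequal width show both directions. On clone AC211018.2 a shoot peak of 6133 bp (138564 to 144696) met a root peak of 547 bp (139084 to 139630), 11.2-fold wider in shoot. On clone AC212245.2 the shoot peak measured 1270 bp (19359 to 20628) and the root peak 126 bp (20232 to 20357), and on clone AC215312.2 they measured 2277 bp (44336 to 46612) and 270 bp (45474 to 45743). All 3 of these shoot peaks overlapped a shoot H3K4me3 peak. In the opposite direction, clone AC191304.2 had 199 bp in shoot (110274 to 110472) and 1119 bp in root (110195 to 111313), 5.62-fold wider in root. Clone AC191345.3 had 212 bp in shoot (25038 to 25249) and 1043 bp in root (24201 to 25243). Clone AC209965.2 had 163 bp in shoot (27043 to 27205) and 699 bp in root (26676 to 27374). None of these 3 regions held an H3K4me3 or H3K9ac peak in either organ.

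Width change was then set against H3K4me3, the mark of active gene starts, at the same pairs. Pairs with H3K4me3 on the shoot peak only, 435 in number, had a median log2 width ratio of 0.51 (0.44 to 0.63). The 139 pairs with H3K4me3 on the root peak only had 0.06 (0.01 to 0.13). Pairs with H3K4me3 in both organs (1095) and in neither (1770) lay between, at 0.43 (0.37 to 0.49) and 0.36 (0.32 to 0.39). The wider H3K27me3 peak has more room to meet H3K4me3, and its part in this order was not tested. The 139 pairs also had short peaks, with medians of 243 bp in shoot and 237 bp in root, compared with 761 bp in shoot and 445 bp in root at the 435 pairs.

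Shared peaks met the marks of active chromatin more often than peaks of a single organ. In shoot, H3K4me3 of the same organ overlapped 41.8% of shared peaks (40.3 to 43.3%) and 30.5% of the others (29.6 to 31.4%), and H3K9ac overlapped 34.2% and 24.3%. In root, H3K4me3 overlapped 33.0% of shared peaks (31.6 to 34.3%) and 16.0% of the others (14.6 to 17.5%), and H3K9ac overlapped 12.5% and 7.23%. H3K36me3 met 7.32% of shared and 3.68% of other shoot peaks, and 7.32% of shared and 2.33% of other root peaks. DNA methylation met 5.82% of shared and 3.94% of other shoot peaks, and 1.95% and 1.58% of those in root. Shared peaks were also longer, as given above, and the part of length in these shares was not tested.

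Among neighbouring pairs on a clone, H3K27me3 peaks were within 1 kb of each other more often than peaks of the other marks. Most of these close pairs came from the far ends of clones, as defined below. Of 7085 neighbouring pairs in shoot, 27.1% (26.1 to 28.2%) were within 1 kb, and of 2589 pairs in root 40.5% (38.6 to 42.4%) were. The 8 lists of the other marks gave 1.78% to 19.3%. Pairs leave out clones with a single peak, which were 4062 of 7507 clones in shoot and 2954 of 4286 in root. Counted per peak, H3K27me3 did not stand out. Of all its peaks, 20.6% in shoot and 21.9% in root had another within 1 kb, inside the 2.36% to 25.0% of the other lists. The median gap between neighbours was 16502 bp in shoot and 7855 bp in root, against 13863 to 25844 bp in the other lists. When peaks no more than 1 kb apart were strung into runs, 140 runs in shoot and 94 in root had 5 or more peaks, holding 6.09% of shoot peaks (5.71 to 6.49%) and 9.38% of root peaks (8.72 to 10.1%). In the other lists such runs held 0.0420% to 1.67% of peaks.

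The long runs almost all ended near the last listed peak of their clone. The end of a clone was taken as the last peak end in any of the 10 lists. Clone lengths were not available, so this end can lie short of the physical end. By this rule every clone with a peak has a peak at its end. Within 1 kb of it ended 125 of the 140 long runs in shoot and 78 of the 94 in root. Within 5 kb of it ended 137 in shoot and 93 in root. This was not particular to H3K27me3. Every long run of the other histone marks ended there too, such as 52 in shoot and 42 in root for H3K36me3. For DNA methylation 46 of 46 did so in shoot and 66 of 99 in root. None of the long H3K27me3 runs of either organ lay in the first 5 kb of its clone. The start of a clone was not set by a peak, so start and end cannot be compared by these counts. Single peaks were measured by the same rule as the long runs. Of single peaks, 10.6% of those in shoot (10.0 to 11.1%) and 10.9% of those in root (10.1 to 11.7%) ended within 5 kb of the clone end. H3K27me3 peaks were also more frequent there than those of other marks, with 20.8% of shoot peaks (20.1 to 21.5%) and 25.3% of root peaks (24.3 to 26.3%) in the last 5 kb, against 12.5% to 17.7% in the other lists. H3K27me3 peaks in the last 5 kb were short, with a median of 341 bp in shoot, against 476 bp elsewhere, and of 278 bp in root, against 383 bp elsewhere. In each of the other lists the median was lower there too.

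Without the last 5 kb of each clone, the value of each organ lay within the interval of the other. Neighbours within 1 kb were then 12.8% of pairs in shoot (11.8 to 13.7%) and 13.3% in root (11.6 to 15.2%). Of runs of 5 or more peaks, 3 were left in shoot and 1 in root. The other 3 histone marks gave 1.06% to 8.45% under the same rule, and DNA methylation gave 6.49% in shoot and 17.1% in root. By this share within 1 kb, H3K27me3 peaks lay above the other histone marks away from clone ends too. The width ratio at shared peaks was hardly altered, at 0.38 on the log2 scale (0.35 to 0.42) over 2954 pairs.

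**Figure D3:**
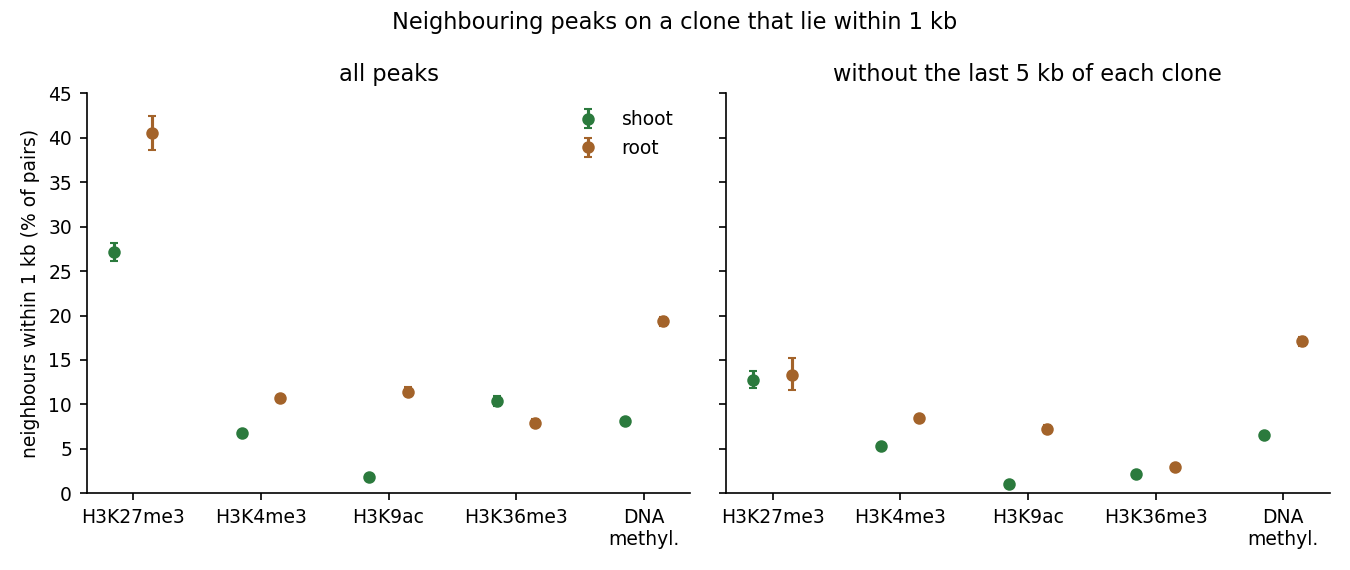
Share of neighbouring peaks on a clone that lie within 1 kb (percent of neighbouring pairs, with 95% Wilson intervals), by mark, shoot left of root, for all peaks (left panel) and for peaks more than 5 kb before the end of the clone (right panel). For H3K27me3 the shares are 27.1% in shoot and 40.5% in root with all peaks, and 12.8% in shoot and 13.3% in root without clone ends.

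Inside the long runs the lists held short pieces, given as separate peaks, that nearly touched or overlapped. The median run spanned 3290 bp in shoot and 2884 bp in root, of which peaks covered 85.1% in shoot and 82.3% in root. The gap between successive pieces was 49 bp in the median in shoot and 41 bp in root, and 30.3% of successive pieces in shoot and 31.2% in root overlapped each other within the same list. Joining peaks under 300 bp apart left 6.14% of neighbours within 1 kb in shoot (5.54 to 6.81%) and 9.20% in root (7.91 to 10.7%). The other lists gave 0.822% to 4.59%. After the same joining, neighbours within 5 kb were 15.2% in shoot and 17.4% in root, against 10.2% to 17.1% in the other lists.

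These runs were shared by the organs more often than single peaks were. A root peak lay in 104 of the 140 long shoot runs (74.3%, 66.5 to 80.8%), compared with 27.2% of single shoot peaks. A shoot peak lay in 91 of the 94 long root runs (96.8%, 91.0 to 98.9%), compared with 61.5% of single root peaks. The runs are longer targets than single peaks, and unlike these they lay almost all near clone ends, as given above. The parts of length and place were not tested. The runs with most peaks in shoot had 11: that on clone AC210731.2 (210288 to 214810) spanned 4523 bp and held 13 root peaks, and that on clone AC184048.4 (133394 to 137923) held 6. The run with most peaks in root, 14 on clone AC196646.3 (149101 to 153495), held 6 shoot peaks. H3K4me3 was on 17.5% of shoot peaks in long runs (15.1 to 20.1%) and on 36.2% of single shoot peaks (35.3 to 37.1%). It was on 16.1% of root peaks in long runs (13.5 to 19.2%) and 28.2% of single root peaks. Peaks in long runs were shorter than single peaks, with medians of 312.5 bp against 466 bp in shoot and 275 bp against 371 bp in root. The parts of peak length and of place on the clone in the H3K4me3 shares were not tested, and pieces of the same run are not separate cases.

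Peaks were unevenly spread over clones in both organs. The 1550 clones with most peaks held 45.4% of shoot peaks and 60.2% of root peaks, against 22.6% to 34.3% in the other lists, which have more peaks. The variance of peaks per clone was 2.20 times the mean in shoot and 2.29 times in root, within the range of 1.48 to 2.33 of the other marks. Root peaks tended to lie on clones that also had shoot peaks: 86.1% of the 4286 clones with a root peak had a shoot peak, and 98.7% of the 156 clones with 5 or more. Over all 15498 clones, 48.4% had a shoot peak. In the other direction, 49.1% of the 7507 clones with a shoot peak had a root peak, and 84.6% of the 436 clones with 5 or more. Over all clones, 27.7% had a root peak. Clone AC211681.2 had the most peaks in shoot, 18 with 12 in root. Clone AC196646.3 had the most in root, 15 with 7 in shoot.

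On the few clones that could be used, about 1 peak in 2 lay outside the listed gene models in each organ. Peaks and gene models could be set on the same coordinates for 184 clones, 1.19% of clones with a peak, on which models lie on a single contig whose last model reaches at least 95% of the clone's extent. These clones held 131 shoot peaks and 50 root peaks, and the models listed there, which have at least 1 mRNA read in either organ, covered 23.2% of their 23.6 Mb. Outside every model lay 70 of the 131 shoot peaks (53.4%, 44.9 to 61.8%) and 26 of the 50 root peaks (52.0%, 38.5 to 65.2%). Unexpressed genes are not in this list of models, so some of these peaks may lie on genes that were not used here.

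The other marks were measured against the same models, which were listed only if they had mRNA reads. Because that filter selects expressed genes, the order of the marks below does not describe their place on all genes, and the part of the filter in it was not tested. Peaks outside every model were 17.1% to 28.1% for H3K4me3, H3K9ac and H3K36me3, and 77.9% in shoot and 76.9% in root for DNA methylation. With TE models set aside, H3K27me3 peaks outside the remaining models were 59.5% in shoot (51.0 to 67.6%) and 64.0% in root (50.1 to 75.9%), and those on TE models alone were 8 in shoot and 6 in root. A model start lay within 500 bp of 37.4% of shoot peaks (29.6 to 45.9%) and 34.0% of root peaks (22.4 to 47.8%), compared with 63.7% to 66.9% for the 3 other histone marks. The peaks outside models were a median of 2744 bp away from the nearest model in shoot and 2654 bp in root, and 51 of 131 in shoot and 16 of 50 in root were more than 1 kb away from any.

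Peaks inside and outside models had close median lengths. The median was 429 bp inside and 426 bp outside in shoot, and 325 bp inside and 362 bp outside in root. Peaks outside models were 13 of 30 shared and 57 of 101 other shoot peaks, and 14 of 30 shared and 12 of 20 other root peaks, with intervals that overlapped in both organs. As a check of the coordinates, 74.1% of shoot and 76.2% of root H3K4me3 peaks on these clones lay inside models. On single-contig clones whose last model reached less than 50% of the extent, 9.62% of shoot and 9.40% of root H3K4me3 peaks did so. On those reaching 80 to 95% of the extent, 44.4% of shoot and 39.3% of root H3K4me3 peaks did so. Clones below 95% were not used, except in the alternative at 80% given at the end.

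**Figure D4:**
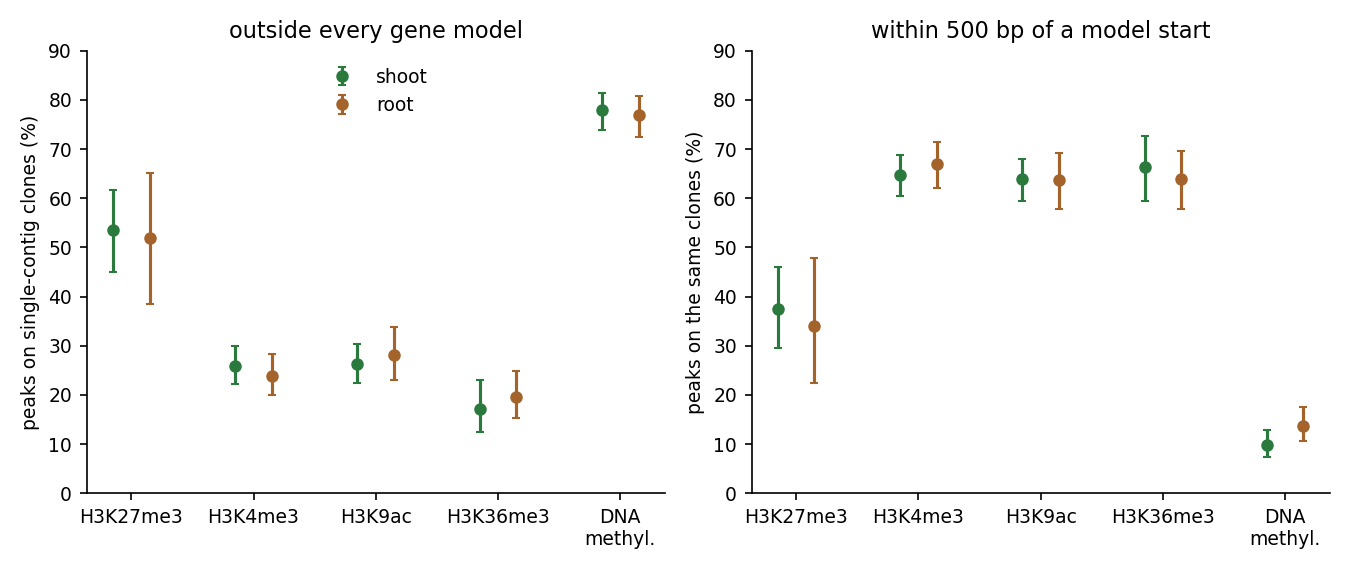
Share of peaks outside every listed gene model (left panel) and within 500 bp of a model start (right panel) on 184 single-contig clones, by mark, shoot left of root (percent of peaks with 95% Wilson intervals). H3K27me3 lies at 53.4% in shoot and 52.0% in root in the left panel; only models with mRNA reads are listed, so the order of the marks does not describe all genes.

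In the gene tables the organ difference was larger than in the peak lists. Of 186790 gene models labelled as not being TE, H3K27me3 had a listed length on 6622 in shoot (3.55%, 3.46 to 3.63%) and 2361 in root (1.26%, 1.21 to 1.32%). The mark was in both organs on 1677 models, which is 25.3% of those marked in shoot and 71.0% of those marked in root. It was in shoot only on 4945 models and in root only on 684. Models that repeat the mark values of another model made up 25.4% of those marked in shoot and 23.7% in root. These are not separate cases, but they are included in the counts, shares and intervals of gene models given here. Only some of the alternatives at the end count them once.

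Marked lengths in the tables do not trace back to peak widths in the same way in both organs. The summed marked length was 5.94 Mb in shoot and 1.02 Mb in root, a ratio of 5.81, against a ratio of 2.88 for the length covered by peaks (9.01 Mb in shoot and 3.13 Mb in root). Set against the peak length, this sum came to 66.0% for shoot and 32.7% for root, or 49.6% and 25.6% without repeated models. It is not the share of peak length in genes, since for H3K4me3 the same measure came to 128% in shoot and 150% in root. The median marked length was 710 bp in shoot and 335 bp in root, a ratio of 2.12, while the peak medians had a ratio of 1.27. The shortest marked length in root, 80 bp, was below the shortest root peak of 97 bp. The sources used here do not state how marked lengths were derived from peaks, and the larger ratios of the tables rest on that step. Other marks differed between tables and peaks as well: the ratio of length, shoot over root, was 1.46 in the tables and 1.72 in the peaks for H3K4me3, 4.26 and 3.73 for H3K9ac, and 0.962 and 1.79 for DNA methylation, whereas H3K36me3 gave 1.08 in both.

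Models marked in both organs differed in the length of the mark far more than in its density. The median log2 ratio of marked length, shoot over root, was 1.12 (1.06 to 1.18), and the length was larger in shoot in 93.9% of the 1677 models. At 2-fold or more, 942 models (56.2%) were longer in shoot and 6 (0.358%) were longer in root. The depth per marked base, a coverage for which the sources used here name no scaling, had a median log2 ratio of -0.01 (-0.04 to 0.02), and 49.5% of models were higher in shoot. With both lengths at 500 bp or more, this median was 0.15.

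Models marked in both organs had longer and denser marks than those of a single organ. In shoot the median length was 937 bp on models marked in both organs and 632 bp on models marked in shoot only, and the depth per base was 3.42 and 2.56. In root the length was 384 bp on models marked in both and 251 bp on models marked in root only, and the depth per base was 3.47 and 2.91. In 4 equal classes of marked length from short to long, models marked in shoot carried the mark in root in 13.1%, 22.2%, 32.3% and 33.8% of cases. Models marked in root carried it in shoot in 53.1%, 65.3%, 82.0% and 83.8%.

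Single models show the range. Zm094371 had 4541 bp of the mark in shoot against 458 bp in root, a 9.91-fold difference, with depths per base of 5.70 in shoot and 5.88 in root, and its mRNA was listed at 0 in both organs. Zm165506 had 4443 bp in shoot against 657 bp in root, with a mean mRNA depth of 23.4 in shoot and 37.6 in root. The mark was longer in root on Zm186437, with 3315 bp in shoot and 4690 bp in root. This model had depths per base of 32.8 in shoot and 15.6 in root, far above the medians given above, and also carried 2949 bp of H3K4me3 in shoot and 2934 bp in root. Zm003193 had 923 bp in shoot against 1235 bp in root, with a mean mRNA depth of 39.2 in shoot and 16.4 in root. None of these identifiers could be given a gene name.

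Longer H3K27me3 went with fewer expressed models in shoot, and in root the course depended on how expression was counted. From the shortest to the longest class of marked length, mRNA above 0 in shoot was found for 31.0% (28.8 to 33.2%), 25.6%, 23.6% and 22.5% (20.5 to 24.5%) of models marked in shoot. For models marked in root, mRNA above 0 in root was found for 34.2% (30.5 to 38.1%), 31.2%, 31.7% and 30.3% (26.7 to 34.2%). Over all models the share was 23.8% in shoot and 23.7% in root. The shortest class of shoot and all classes of root had intervals wholly above these levels. The second class of shoot, at 25.6% (23.5 to 27.7%), had an interval that included the level of shoot. So did the third, at 23.6% (21.6 to 25.7%), and the longest, so that no class of shoot lay wholly below it. With only mRNA at or above the median of values above 0 counted, the share was 15.9% in the shortest and 9.36% in the longest class of shoot, and 18.4% in the shortest and 11.2% in the longest class of root, so that it was lower for the longest marks in both organs. A value of 0 does not mean that a model was silent, since the lowest mean depth listed above 0 was 2.55 in shoot and 2.53 in root.

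The organ difference of mRNA followed the marked length in shoot in 1 direction only. mRNA was called different at 4-fold or more after adding 12 reads, with at least 146 reads in an organ, and over all models 1.89% were higher in shoot and 1.29% higher in root. Among models marked in shoot, those with mRNA higher in root were 3.73% (2.92 to 4.76%), 6.42%, 8.76% and 9.06% (7.77 to 10.5%) from the shortest to the longest class. Those higher in shoot were 4.70%, 4.78%, 4.83% and 4.47%. The shares by class of root length had no steady course. Of the 1677 models with the mark in both organs, 5.43% (4.44 to 6.62%) had more mRNA in shoot and 7.45% (6.29 to 8.81%) had more in root. Of the 4945 models with the mark in shoot alone, 4.45% (3.91 to 5.06%) had more mRNA in shoot and 6.84% (6.16 to 7.57%) had more in root. Of the 684 with the mark in root alone, 10.4% (8.31 to 12.9%) had more mRNA in shoot and 3.65% (2.49 to 5.34%) had more in root. Longer marks in shoot were also denser, with a median depth per base of 1.88 in the shortest class and 4.04 in the longest, and length and density were not separated here.

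**Figure D5:**
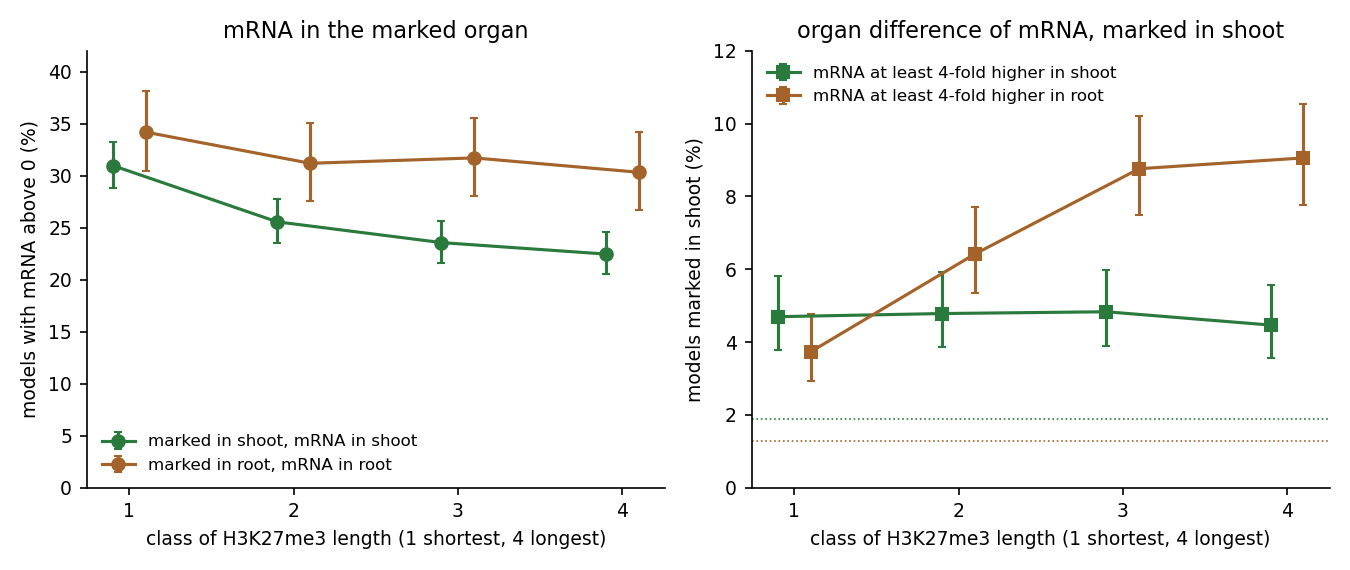
Left panel: share of models with mRNA above 0 in the marked organ, by class of H3K27me3 length, for models marked in shoot and in root. Right panel: share of models marked in shoot whose mRNA was at least 4-fold higher in shoot or in root, with the share over all models as dotted lines (1.89% and 1.29%); bars are 95% Wilson intervals. The share higher in root goes to 9.06% in the longest class while the share higher in shoot stays between 4.47% and 4.83%.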

How the data were processed

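Sample titles gave the groups. The authors deposited a peak list per library with a clone, a start and an end and no score (other values, positions only), and a gene table per organ with marked lengths (other values, in bp) and depths, which are signal, the summed base coverage within the mark. The sources used here name no aligner, peak caller, build or scaling of the signal. Peaks were compared as listed, with overlap of at least 1 bp, runs of peaks at most 1 kb apart, and pairs in which 1 shoot peak met 1 root peak. Gene tables were joined by the number in the identifier. mRNA coverage was divided by the read length of 35 bases, which gave totals of 21.6 M reads in shoot and 21.4 M reads in root over the models. Named regions were the 3 longest peaks, the clones and runs of most peaks and the 3 extreme width ratios in each direction; named models were the 2 highest and 2 lowest length ratios among the 798 models at or above the median marked length in both organs. The named runs were added after their values were seen. The comparison itself, its members and lists were chosen with earlier results of these data known. Python 3.11.15, pandas 2.3.3, numpy 2.4.6, scipy 1.17.1 and matplotlib 3.10.9 were used, and the overlap, run and interval functions were tested on simulated data. No sequence is shown.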

Additional observations from a re-analysis of the deposited data

How the results depend on the processing

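Of 51 alternative values over 19 results, 12 stayed within the counting interval of the value given above, 39 lay outside it and 13 moved by more than 1.5 times. No ratio changed direction, except depth per marked base, which was -0.01 on the log2 scale and lay at 0 or above under both alternatives. Those without the last 5 kb of each clone, with peaks joined at 300 bp and with models reaching 80% of the extent, 13 values in all, were chosen after seeing the data. With peaks of at least 500 bp, shoot over root was 3.12 for peak number and 3.74 for covered length, neighbours within 1 kb were 14.6% in shoot and 16.3% in root, and the overlap of organs was 22.9% of shoot and 71.0% of root peaks. Without clone ends, the ratios were 2.25 and 3.03, the median lengths 476 bp in shoot and 383 bp in root, neighbours within 1 kb 12.8% in shoot and 13.3% in root, and the overlap 28.0% of shoot and 63.4% of root peaks. Joining peaks under 500 bp apart gave median lengths of 507 bp in shoot and 396 bp in root, while shared peaks alone had 572 bp in shoot and 397 bp in root. Neighbours within 5 kb were 34.1% in shoot and 45.9% in root, those within 1 kb on clones with peaks in both organs 28.4% in shoot, and those after joining at 300 bp 6.14% in shoot and 9.20% in root. An overlap of 50% of the shorter peak left 27.6% of shoot and 62.1% of root peaks shared. A reciprocal overlap of 50% lowered the log2 width ratio to 0.19, which by construction removes pairs of unequal width. Peaks more than 1 kb from a model were 38.9% in shoot and 32.0% in root. With models reaching 80% of the extent, 61.2% of shoot and 71.0% of root peaks were outside. That setting adds clones on which fewer H3K4me3 peaks lay inside models, so its coordinates matched less well by that check. The organ with the larger share outside models changed with the setting. Counting repeated models once gave 2.99% marked models in shoot and 1.09% in root, and lengths of at least 500 bp gave 2.39% in shoot and 0.355% in root, a log2 length ratio of 0.83 and a depth ratio of 0.15. With mRNA at or above its median, expressed models made up 15.9% of the shortest and 9.36% of the longest shoot class, and 18.4% of the shortest and 11.2% of the longest root class. Apart from clone ends and the filters named, the cause was not tested. No paired analysis was possible because each group has 1 library, and for the same reason no replicate could be left out. The read depth of the chromatin libraries is unknown here, which limits every comparison of peak number and width, and the 131 and 50 peaks on single-contig clones limit the share outside genes.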
